A study of Mus musculus with 6 samples.

Results

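The NMDA receptor subunit genes Grin1, Grin2a, Grin2b, Grin2c, Grin2d, and Grin3a were examined in the mouse hippocampus. They were chosen by gene symbol as the subunits with a row in the expression matrix, which made 6 of the 14477 listed genes, and Grin3b was not analysed here. RNA-Seq had been done on untreated hippocampi at baseline, from Phf21bΔ4/Δ4 replicates 2, 3, and 6 and, as controls, Phf21b+/+ replicates 5, 7, and 8. The Phf21bΔ4/Δ4 mice carry a homozygous, whole-body CRISPR/Cas9 disruption of exon 4 of Phf21b, a gene for a PHD finger protein that binds chromatin, and their depletion of the protein is partial. Both genotypes were kept on a C57BL/6J background, and the study's methods give young adult male and female littermates between 2 and 6 months old. The sex of these 6 samples is not given in the labels. Xist, the transcript of the inactive X chromosome, was at 86.9–216 CPM in all 6, and none of 4 Y-linked genes looked for was listed, so the values show no sign of a male sample. Each numbered sample was taken as 1 mouse. The sources used here do not say whether tissue was pooled, so the p-values measure the spread between these samples. The comparison asked whether the transcripts of the receptor differ between the genotypes.

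NMDA receptors are glutamate-gated cation channels built from 4 subunits, in which GluN1 is obligatory and is joined by GluN2 or GluN3 subunits. GluN1 and GluN3 bind glycine or D-serine, and GluN2 binds glutamate. Magnesium blocks the pore until the membrane is depolarized, so that the channel passes calcium when presynaptic release and postsynaptic activity coincide, and in the hippocampus this calcium entry starts long-term potentiation. GluN2A and GluN2B are the main GluN2 subunits of forebrain principal neurons, GluN2C is best known from cerebellar granule cells, GluN2D from interneurons and deep brain nuclei, and GluN3A from the immature forebrain.

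Values are CPM, the reads of a gene scaled by the authors to effective library size. Reads on listed genes ran from 20495605 to 24881257 per mouse, so that 3 reads corresponded to 0.127–0.143 CPM. The targeted gene Phf21b was at 2.15, 3.57, and 3.87 CPM in Phf21bΔ4/Δ4 replicates 2, 3, and 6 and at 6.50, 5.23, and 6.47 CPM in Phf21b+/+ replicates 5, 7, and 8. The genotypes did not overlap, with a log2 fold change of -0.96 (SE 0.26) and a Benjamini-Hochberg FDR of 0.141 by limma. Calls needed an FDR below 0.1 together with more than a 1.3-fold difference, which took in 176 genes, 80 of them higher and 96 lower in Phf21bΔ4/Δ4 mice. When the mice were scaled to their pan-neuron markers instead, the median log2 change of all genes moved from -0.02 to -0.39, and 97.8% of the calls were lower against 54.5% with the values as deposited.

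The libraries also differed in marker genes of hippocampal fields and of neighboring regions. These marker lists were chosen with earlier results of these data known, so their counts are not an independent test. Summed CA1 pyramidal markers lay at 850–978 CPM in Phf21bΔ4/Δ4 mice and 293–365 CPM in Phf21b+/+ mice, and 3 of 6 (Fibcd1, Mpped1, and Gpr161) were called higher, beside 0.553% of all genes. Summed dentate granule markers lay at 142 and 139 CPM in Phf21bΔ4/Δ4 replicates 2 and 3, at 522 CPM in Phf21bΔ4/Δ4 replicate 6, and at 541–646 CPM in Phf21b+/+ mice, and 0 of 6 were called while 5, all lower, had an unadjusted p under 0.05, beside 23.6% of all genes at this p in either direction. Summed medial habenula markers lay at 47.2–91.8 CPM in Phf21bΔ4/Δ4 mice and 285–431 CPM in Phf21b+/+ mice, 10 of 11 were called lower, beside 0.663% of all genes, and 4 of 11 had at most 3 reads in each Phf21bΔ4/Δ4 mouse. Summed interneuron markers lay at 698–849 CPM in Phf21bΔ4/Δ4 mice and 475–541 CPM in Phf21b+/+ mice. All Phf21bΔ4/Δ4 mice were above all Phf21b+/+ mice in 7 of 8, beside 15.0% of all genes. Of the 8, 1 (Gad2) was called higher, beside 0.553% of all genes. Summed thalamic markers lay at 129–228 CPM in Phf21bΔ4/Δ4 mice and 260–561 CPM in Phf21b+/+ mice. All 8 of 8 listed had a log2 change below 0, where 47.6% of all genes were above 0. Of the 8, 1 (Tcf7l2) was called lower, beside 0.663% of all genes. Choroid plexus markers summed to 15595 CPM in Phf21b+/+ replicate 7 and to 963 CPM or less in the other 5 mice. The part of these differences in the subunit values was not tested. In bulk tissue, fewer cells of a type, less RNA per cell, and less of a neighboring region in the sample cannot be told apart.

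Promoter sequences are shown for a subunit gene whose levels separated the genotypes and for one whose levels did not, because the cyclic AMP response element (CRE) is a well-known promoter element of activity-regulated neuronal genes. RefSeq promoters on GRCm38.p6 had an entry for 3 of the 6 genes, Grin1, Grin2c, and Grin2d. The 250 bases before the start are printed 5′ to 3′ in the direction of transcription for Grin1 (chr2:25319188-25319437, minus strand) and Grin2c (chr11:115267244-115267493, minus strand), with matches to the CRE half-site TGACG or its reverse complement CGTCA in capitals.
Grin1: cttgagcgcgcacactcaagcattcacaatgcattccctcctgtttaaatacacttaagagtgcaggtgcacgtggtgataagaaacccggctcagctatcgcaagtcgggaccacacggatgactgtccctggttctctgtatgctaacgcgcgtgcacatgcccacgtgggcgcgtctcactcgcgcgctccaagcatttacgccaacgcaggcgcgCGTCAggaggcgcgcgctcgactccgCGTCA
Grin2c: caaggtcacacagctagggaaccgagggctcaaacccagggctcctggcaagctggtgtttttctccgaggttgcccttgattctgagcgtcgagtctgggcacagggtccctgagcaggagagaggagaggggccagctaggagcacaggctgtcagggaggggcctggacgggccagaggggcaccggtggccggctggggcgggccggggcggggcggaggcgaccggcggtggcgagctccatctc
The Grin1 window held 2 half-sites, which began 31 and 5 bases before the start, and the Grin2c window held 0. The Grin2d window (chr7:45866682-45866931, minus strand) also held 0. It lies before an internal start, inside the annotated span of the gene, whereas the Grin1 and Grin2c windows adjoin the 5′ end of the annotated gene. The palindrome TGACGTCA, which contains both half-site forms, was in none of the 3. Of all RefSeq promoter windows of this length, 17.8% held at least 1 half-site, 3.9% held at least 2, and 1.55% held the palindrome. CpG dinucleotides numbered 27 in the Grin1 window, 15 in that of Grin2c, and 9 in that of Grin2d. A match describes these letters only.

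Grin2b transcripts were about 1.96-fold higher in the Phf21bΔ4/Δ4 hippocampus and Grin1 transcripts 1.51-fold, but none of the 6 subunit genes passed the FDR threshold. Of the 6, 0 were called, beside 1.22% of all genes, and 3 (Grin1, Grin2a, and Grin2b) had every Phf21bΔ4/Δ4 mouse above every Phf21b+/+ mouse, beside 15.0% of all genes. These 3 had an unadjusted p under 0.05, beside 11.6% of all genes that were higher at this p. The median log2 change of the 6 genes was 0.57 and that of all genes -0.02. Log2 changes were above 0 for 6 of 6, beside 47.6% of all genes, and for 4 of 6 with pan-neuron scaling, which lowers all genes by the same amount and leaves 11.3% of them above 0. For a single gene, the smallest two-sided p that exact permutation of the 6 mice can give is 0.1.

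**Figure D1:**
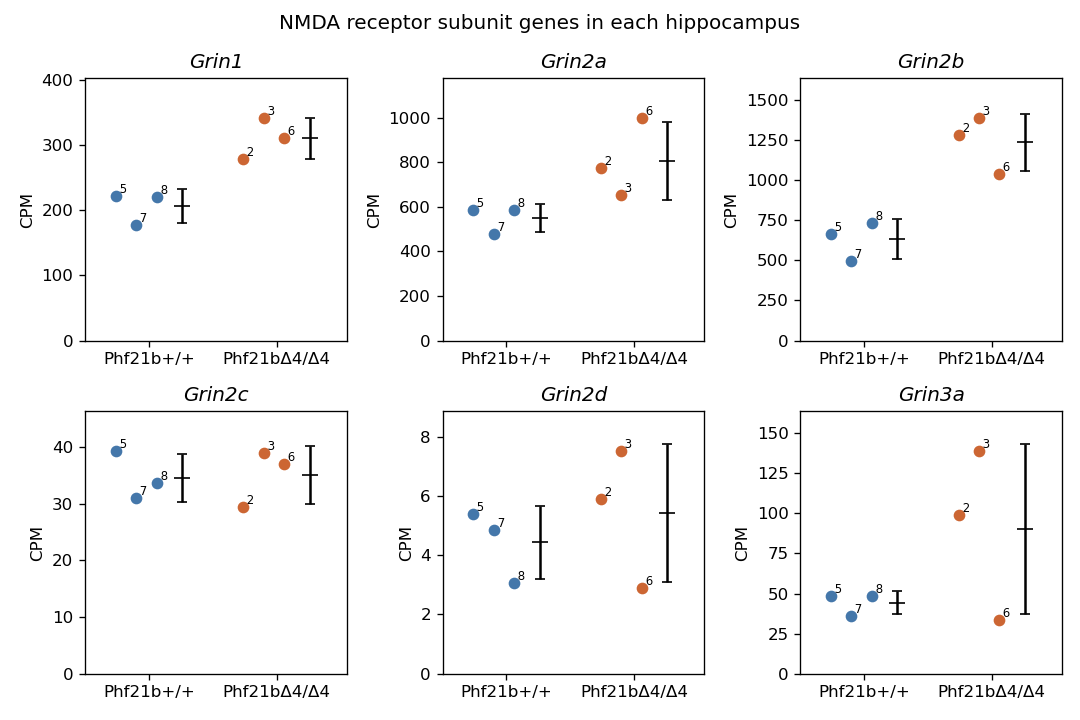
CPM of the 6 subunit genes in each mouse, with 1 panel per gene, points for single mice, and a line at the mean of each genotype (n = 3). Grin1, Grin2a, and Grin2b separated the genotypes, Grin2c and Grin2d did not, and Grin3a in Phf21bΔ4/Δ4 mice ran from 33.6 to 139 CPM.

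Grin1 encodes GluN1, the subunit that every NMDA receptor needs, and lies on the minus strand of chromosome 2 (chr2:25291181-25319187, GRCm38, ENSMUSG00000026959.13). Its level was 279, 341, and 311 CPM in Phf21bΔ4/Δ4 replicates 2, 3, and 6 and 222, 177, and 220 CPM in Phf21b+/+ replicates 5, 7, and 8. Every Phf21bΔ4/Δ4 mouse was above every Phf21b+/+ mouse, and Phf21b+/+ replicate 7 was the lowest. The means were 310 ± 31.0 and 206 ± 25.6 CPM (SD, n = 3 each). The log2 fold change was 0.59 (SE 0.12, 95% interval 0.30 to 0.88), with an FDR of 0.117 by limma with Benjamini-Hochberg adjustment. Between 4189 and 7162 reads per mouse stood behind these values. The antisense gene Grin1os shares 1307 exon bases with Grin1 on the opposite strand, and the strand setting of the read counting is not named in the sources used here, so reads of the pair cannot be told apart.

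Grin2a encodes GluN2A, the glutamate-binding subunit that comes to predominate at mature forebrain synapses (chr16:9567898-9995560, minus strand, ENSMUSG00000059003.12). It was at 774, 651, and 997 CPM in Phf21bΔ4/Δ4 replicates 2, 3, and 6 and at 587, 476, and 585 CPM in Phf21b+/+ replicates 5, 7, and 8. The genotypes did not overlap, although Phf21bΔ4/Δ4 replicate 3 lay nearer to the highest Phf21b+/+ mouse than to Phf21bΔ4/Δ4 replicate 6. Means were 807 ± 175 and 549 ± 63.3 CPM (SD, n = 3 each). Limma put the log2 fold change at 0.54 (SE 0.18, 95% interval 0.12 to 0.96) with an FDR of 0.163.

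Grin2b encodes GluN2B, the GluN2 subunit that predominates early in forebrain development and that anchors CaMKII at the synapse (chr6:135713233-136173511, minus strand, ENSMUSG00000030209.14). Its level was 1282, 1383, and 1036 CPM in Phf21bΔ4/Δ4 replicates 2, 3, and 6 and 665, 496, and 735 CPM in Phf21b+/+ replicates 5, 7, and 8. All Phf21bΔ4/Δ4 values were above all Phf21b+/+ values, with 1036 CPM as the lowest Phf21bΔ4/Δ4 value and 735 CPM as the highest Phf21b+/+ value. Means were 1234 ± 178 and 632 ± 123 CPM (SD, n = 3 each). The log2 fold change was 0.97 (SE 0.18, 95% interval 0.54 to 1.41), and the FDR by limma was 0.1003, with rank 178 by p where 176 genes were called. The highest FDR among called genes was 0.0998, so that Grin2b lay just outside the threshold. It passed in 7 of the 12 alternatives that used all 6 mice, among them the corrections for GC, length, and pan-neuron markers, which were chosen after seeing the data. The FDR was 0.0994 with log2(CPM + 1), 0.0972 with log2(CPM + 0.1), 0.0933 with median centring, and 0.0947 without the GC trend. With mice weighted by arrayWeights 24.5% of all genes were called, and with pan-neuron scaling 37.8%. Of the 6 alternatives that left out a mouse, Grin2b passed in 1. This was without Phf21bΔ4/Δ4 replicate 6 (log2 fold change 1.09, FDR 0.026), where 19.5% of all genes were called.

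Grin2c encodes GluN2C, a subunit of channels with weak magnesium block (chr11:115249169-115267243, minus strand, ENSMUSG00000020734.13). It was at 29.3, 38.9, and 37.0 CPM in Phf21bΔ4/Δ4 replicates 2, 3, and 6 and at 39.2, 30.9, and 33.5 CPM in Phf21b+/+ replicates 5, 7, and 8. The genotypes overlapped throughout, and the lowest and the highest value came from different genotypes. The means of 35.1 ± 5.09 and 34.6 ± 4.22 CPM (SD, n = 3 each) gave a log2 fold change of 0.02 (SE 0.14) with an FDR of 0.944 by limma. Its 95% interval, -0.32 to 0.35, corresponds to between 0.802-fold and 1.28-fold, and its sign turned in 7 of 18 alternatives.

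Grin2d encodes GluN2D, which forms slowly deactivating channels (chr7:45831883-45878378, minus strand, ENSMUSG00000002771.12). It was at 5.90, 7.53, and 2.91 CPM in Phf21bΔ4/Δ4 replicates 2, 3, and 6 and at 5.41, 4.85, and 3.06 CPM in Phf21b+/+ replicates 5, 7, and 8. Phf21bΔ4/Δ4 replicate 6 had the lowest level and Phf21bΔ4/Δ4 replicate 3 the highest, so the Phf21b+/+ mice lay within the Phf21bΔ4/Δ4 range. Means were 5.45 ± 2.34 and 4.44 ± 1.23 CPM (SD, n = 3 each), and the log2 fold change of 0.23 (SE 0.39, 95% interval -0.71 to 1.17) had an FDR of 0.731 by limma. With 67 to 158 reads per mouse it was the least deeply covered subunit gene, and its sign turned in 3 of 18 alternatives. The antisense gene Gm45441, which is listed, shares 643 exon bases with it.

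Grin3a encodes GluN3A, a glycine-binding subunit whose channels pass little calcium (chr4:49661611-49845744, minus strand, ENSMUSG00000039579.15). It was at 99.0, 139, and 33.6 CPM in Phf21bΔ4/Δ4 replicates 2, 3, and 6 and at 48.6, 36.04, and 48.1 CPM in Phf21b+/+ replicates 5, 7, and 8. Phf21bΔ4/Δ4 replicates 2 and 3 were above all Phf21b+/+ mice, and Phf21bΔ4/Δ4 replicate 6 was below all of them. The Phf21bΔ4/Δ4 values spanned 2.05 on the log2 scale, the widest range of any subunit gene in either genotype, and the Phf21b+/+ values 0.43. Means were 90.5 ± 53.1 and 44.3 ± 7.13 CPM (SD, n = 3 each), with a log2 fold change of 0.82 (SE 0.49, 95% interval -0.35 to 1.99) and an FDR of 0.333 by limma. Without Phf21bΔ4/Δ4 replicate 6 the log2 fold change was 1.42 with an FDR of 0.018, in a fit in which 19.5% of all genes were called. Dentate granule markers set the same mouse apart from Phf21bΔ4/Δ4 replicates 2 and 3, as given above. So did oligodendrocyte markers, at 8819 CPM against 5776 and 5934. Summed CA2/CA3 markers did not, at 295, 156, and 380 CPM in Phf21bΔ4/Δ4 replicates 2, 3, and 6, where replicate 3 lay furthest from the others. Single CA2/CA3 markers were mixed. Rgs14, at 97.0, 66.4, and 192 CPM in the same order, and Map3k15 were highest in replicate 6 and set it apart. For Bok and Amigo2 replicate 3 lay furthest from the others, and for Grik4 replicate 2 did. The part of these in the Grin3a values was not tested.

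**Figure D2:**
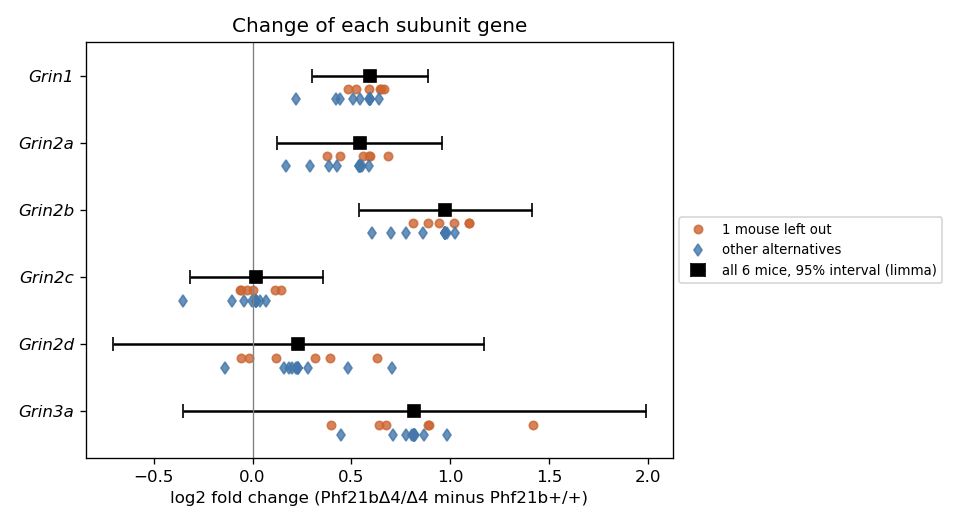
Log2 fold change (Phf21bΔ4/Δ4 minus Phf21b+/+) of each subunit gene, with squares and bars for the value and 95% interval from all 6 mice, circles for fits without 1 mouse, and diamonds for the other alternatives. Grin1, Grin2a, Grin2b, and Grin3a stayed above 0 in all 18 alternatives, whereas Grin2c turned below 0 in 7 and Grin2d in 3, scaling to pan-neuron markers among them for both.

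Levels of different genes were compared as CPM per kilobase of annotated exons. In Phf21b+/+ mice the order was Grin2a (30.6 ± 3.53), Grin2b (25.4 ± 4.94), Grin1 (21.3 ± 2.64), Grin2c (6.86 ± 0.839), Grin3a (3.61 ± 0.581), and Grin2d (0.667 ± 0.185 CPM per kilobase, SD, n = 3). Grin2a and Grin2b overlapped between mice, as did Grin2b and Grin1, whereas each later step in the order separated all 3 mice. Within each Phf21b+/+ mouse, Grin2a was above Grin2b and Grin2b above Grin1. In Phf21bΔ4/Δ4 mice the levels per kilobase were 49.7 ± 7.18 for Grin2b, 45.0 ± 9.77 for Grin2a, 32.0 ± 3.20 for Grin1, 7.37 ± 4.33 for Grin3a, 6.96 ± 1.01 for Grin2c, and 0.818 ± 0.351 for Grin2d. Grin2b and Grin2a again overlapped between mice, and so did Grin3a and Grin2c. Within a mouse, Grin2b was above Grin2a and Grin3a above Grin2c in Phf21bΔ4/Δ4 replicates 2 and 3, but not in replicate 6. The order of the 3 abundant genes depends on the length used. Per kilobase of the longest transcript, Grin1 was first with 48.3 in Phf21b+/+ and 72.6 in Phf21bΔ4/Δ4 mice, followed by Grin2a with 37.5 and 55.2 and by Grin2b with 26.3 and 51.3. In both genotypes and with both lengths, Grin2c, Grin3a, and Grin2d were the lower 3.

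**Figure D3:**
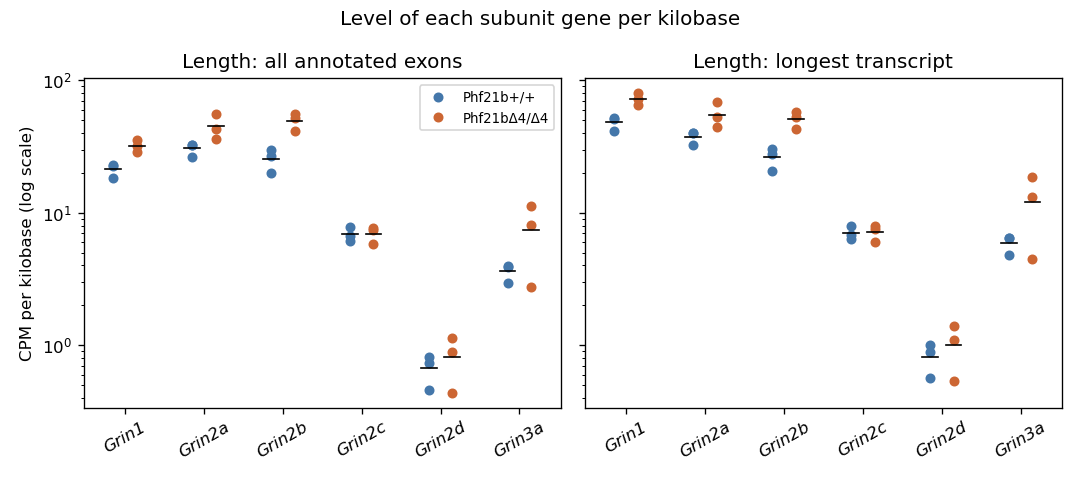
Level of each subunit gene in CPM per kilobase on a log axis, per kilobase of all annotated exons (left) and of the longest transcript (right). Points are single mice and lines are means (n = 3), and Grin1, Grin2a, and Grin2b lie well above the other 3 genes in both panels.

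Ratios between subunits within a mouse do not depend on the library scaling. The log2 ratio of Grin2a to Grin2b was -0.73, -1.09, and -0.06 in Phf21bΔ4/Δ4 replicates 2, 3, and 6 and -0.18, -0.06, and -0.33 in Phf21b+/+ replicates 5, 7, and 8. Phf21bΔ4/Δ4 replicates 2 and 3 were below all Phf21b+/+ mice, but replicate 6 lay at the top of the Phf21b+/+ range, so the genotypes overlapped. The log2 ratio of Grin2b to Grin1 was 2.20, 2.02, and 1.737 in the Phf21bΔ4/Δ4 mice and 1.58, 1.49, and 1.738 in the Phf21b+/+ mice, so that the genotypes overlapped narrowly at Phf21bΔ4/Δ4 replicate 6 and Phf21b+/+ replicate 8. The log2 ratio of Grin2c to Grin1 was -3.25, -3.13, and -3.07 in the Phf21bΔ4/Δ4 mice and -2.501, -2.515, and -2.72 in the Phf21b+/+ mice. All Phf21bΔ4/Δ4 mice were lower in this ratio, by 0.57 on the log2 scale, the only one of the 6 ratios computed in which the genotypes did not overlap. An exact permutation test of it gives its smallest possible two-sided p of 0.1.

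Pan-neuron markers were themselves at 9476, 9110, and 7876 CPM in Phf21bΔ4/Δ4 replicates 2, 3, and 6 and at 7525, 5837, and 7018 CPM in Phf21b+/+ replicates 5, 7, and 8. They were Rbfox3, Snap25, Syt1, Map2, Tubb3, Nefl, and Slc17a7, the last of which marks glutamatergic neurons only. Their log2 changes were uneven, from 0.12 for Nefl to 0.53 for Slc17a7 and 0.71 for Syt1. Per 100 CPM of these markers, Grin2b was at 13.5, 15.2, and 13.2 CPM in Phf21bΔ4/Δ4 and at 8.84, 8.498, and 10.5 CPM in Phf21b+/+ mice, and the genotypes did not overlap. On the same scale Grin1 was at 2.94, 3.74, and 3.95 CPM in Phf21bΔ4/Δ4 and at 2.95, 3.03, and 3.14 CPM in Phf21b+/+ mice, and Grin2a was at 8.16, 7.15, and 12.7 CPM in Phf21bΔ4/Δ4 and at 7.80, 8.15, and 8.33 CPM in Phf21b+/+ mice. Both overlapped between the genotypes. With every mouse scaled to these markers, an alternative added after the values were seen, the log2 fold change of Grin2b was 0.60 (FDR 0.0576 by limma), where 37.8% of all genes were called. This scaling moves every gene by the same amount, so Grin2b is 0.99 above the median of all genes with it and without it. In Phf21bΔ4/Δ4 replicate 6, whose dentate markers were near the Phf21b+/+ level, Grin2b was at 1036 CPM and above every Phf21b+/+ mouse. Its CA1 markers, at 850 CPM, were above every Phf21b+/+ mouse too.

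**Figure D4:**
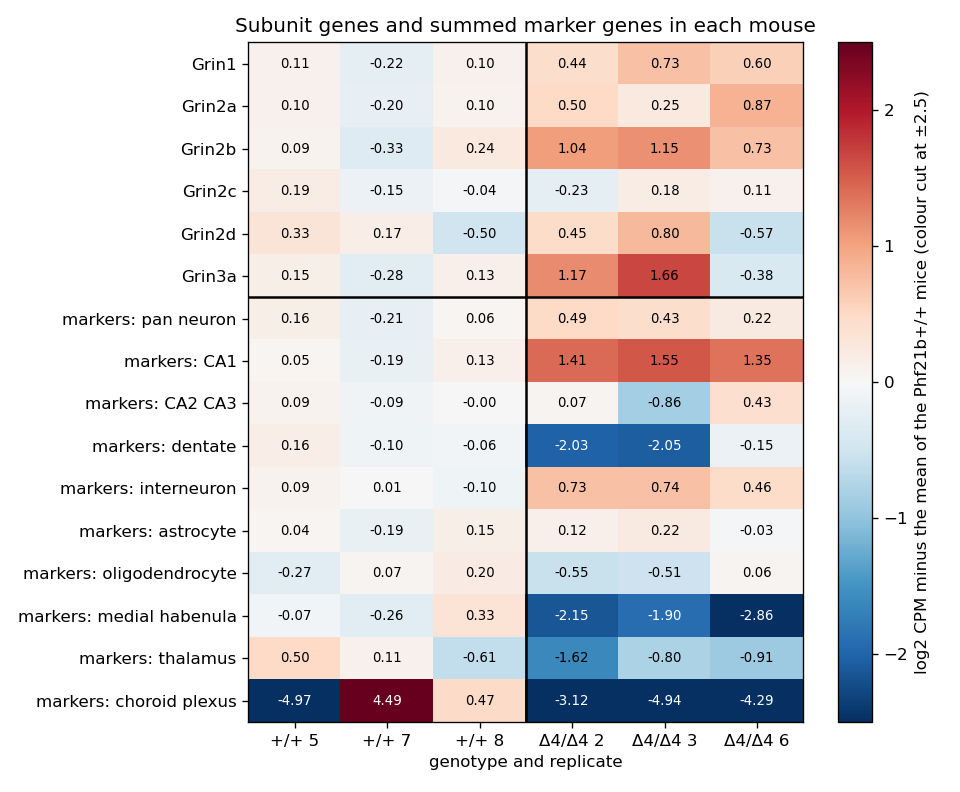
Log2 CPM of the 6 subunit genes and of summed marker genes of cell types and regions in each mouse, minus the mean of the Phf21b+/+ mice, with colors limited to 2.5 in each direction. Phf21bΔ4/Δ4 replicate 6 differs from Phf21bΔ4/Δ4 replicates 2 and 3 in Grin3a, Grin2d, and the dentate and oligodendrocyte markers. CA1 markers are high and medial habenula markers low in all 3.

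Gene length moved with the comparison as well. Genes were divided into 10 bins of like size by exon length, and the bin of the longest genes, which holds Grin2a, Grin2b, and Grin3a, had a median log2 change of 0.11, against -0.16 in that of the shortest. After the trend with length was removed in each mouse, also added after the values were seen, Grin2b had a log2 fold change of 0.775 with an FDR of 0.067 by limma. Grin2a then had 0.38 (FDR 0.291) and Grin3a 0.71 (FDR 0.370), against 0.54 and 0.82 with the values as deposited. Bins by GC content had medians between -0.06 and 0.02.

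Partner genes of the receptor were taken as 5 lists of scaffolds, kinases and phosphatases, co-agonist supply, trafficking and binding partners, and calcium effectors. The lists were chosen with earlier results of these data known, so their counts beside the shares of all genes are not an independent test. Of 91 genes, 89 were listed, and 5 of these were called, all higher in Phf21bΔ4/Δ4 mice, beside 0.553% of all genes called higher and 0.663% called lower. All Phf21bΔ4/Δ4 mice were above all Phf21b+/+ mice for 30 of the 89 and below them for 3, beside 15.0% and 16.0% of all genes. The median log2 change of the 89 genes was 0.18. Without Phf21bΔ4/Δ4 replicate 6 the number called was 26, or 29.2% of the 89, where 19.5% of all genes were called, and without any other single mouse it was 0 or 1. Scaled to pan-neuron markers it was 15, of which 4 were higher and 11 lower, where 37.8% of all genes were called, so that the 16.9% of partner genes lay below the share of all genes. That scaling lowered the log2 changes of all genes alike, and with it the medians of the lists were 0.01 for scaffolds, -0.15 for trafficking and binding partners, and -0.27, -0.27, and -0.44 for kinases and phosphatases, calcium effectors, and co-agonist supply.

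Postsynaptic scaffolds, which hold the receptor in the density, had the highest median of the 5 lists. Of 21 scaffold genes 20 had a log2 change above 0, beside 47.6% of all genes, and the median was 0.38. After quantile normalization 17 were above 0, beside 52.9% of all genes, and with pan-neuron scaling 11, beside 11.3%. In 14 of the 21 every Phf21bΔ4/Δ4 mouse was above every Phf21b+/+ mouse, beside 15.0% of all genes. Of the 21, 2 were called, both higher, beside 0.553% of all genes. They were Homer1, which links the density to metabotropic glutamate receptors, and Akap5, which anchors PKA and calcineurin. Their log2 fold changes were 0.57 (FDR 0.065) and 0.86 (FDR 0.067) by limma. Homer1 did not pass after quantile normalization (FDR 0.109) or with pan-neuron scaling (FDR 0.229). The 19 other scaffold genes did not pass.

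Of 23 kinases and phosphatases that act on the receptor, 2 were called, both higher, beside 0.553% of all genes, and the median was 0.10, or -0.02 after quantile normalization. Prkcb, which encodes the β isoform of protein kinase C, was at 735, 849, and 771 CPM in Phf21bΔ4/Δ4 replicates 2, 3, and 6 and at 477, 397.5, and 528 CPM in Phf21b+/+ replicates 5, 7, and 8. Every Phf21bΔ4/Δ4 mouse was above every Phf21b+/+ mouse. The log2 fold change was 0.75 (SE 0.13) with an FDR of 0.081 by limma, and the FDR was 0.131 after quantile normalization. Of 15 calcium effectors, which act downstream of calcium entry, 1 was called, higher, beside 0.553% of all genes. It was Camk4, a nuclear kinase for CREB, with a log2 fold change of 0.95 (FDR 0.081 by limma). Kcnn2, an SK potassium channel that the calcium opens, was not called, with a log2 fold change of 0.49 and an FDR of 0.121.

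Of the 16 trafficking and binding partners 0 were called, beside 1.22% of all genes, and the median was 0.22. Grm5, the metabotropic receptor mGluR5, was nearest to the threshold, at 749, 718, and 636 CPM in Phf21bΔ4/Δ4 and at 510, 473, and 511 CPM in Phf21b+/+ mice. The genotypes did not overlap, and its log2 fold change of 0.49 had an FDR of 0.113 by limma. Nlgn1, the postsynaptic adhesion protein neuroligin 1, had a log2 fold change of 0.50 with an FDR of 0.135. Genes of co-agonist supply, which make, carry, or break down serine or glycine, were the list with a median below 0, at -0.07. Of the 14, 4 were above 0, beside 47.6% of all genes, and 0 were called, beside 1.22% of all genes. Srr, the serine racemase that makes D-serine, was at 110, 107, and 102 CPM in Phf21bΔ4/Δ4 and at 83.3, 76.7, and 88.1 CPM in Phf21b+/+ mice. The genotypes did not overlap, with a log2 fold change of 0.36 and an FDR of 0.129 by limma, and of -0.0071 with pan-neuron scaling. Slc1a4, a transporter of neutral amino acids including serine, had a log2 fold change of 0.57 with an FDR of 0.139.

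**Figure D5:**
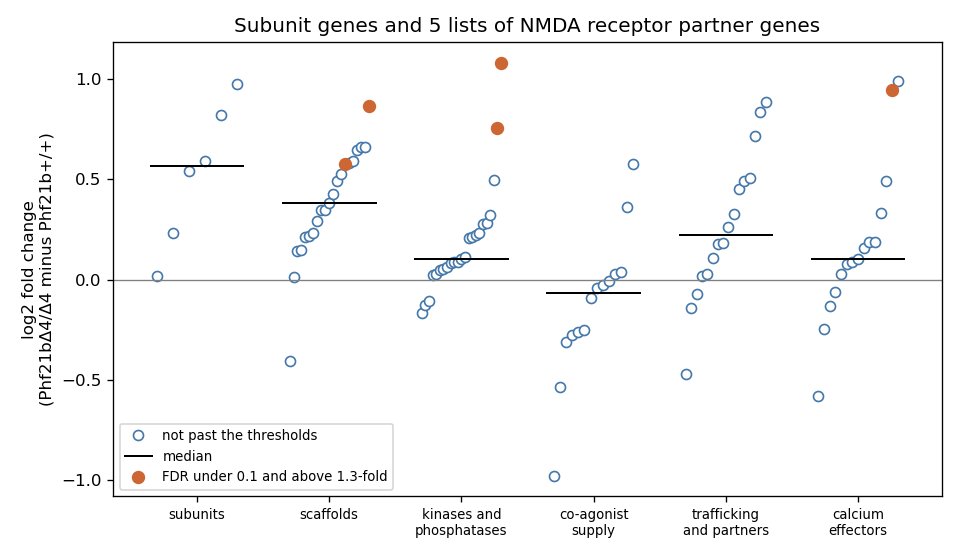
Log2 fold change (Phf21bΔ4/Δ4 minus Phf21b+/+) of the 6 subunit genes and the 89 listed partner genes, with 1 point per gene, a line at the median of each list, and filled points for the 5 genes past both thresholds. The medians of subunits and scaffolds, 0.57 and 0.38, are above those of the other 4 lists, and with pan-neuron scaling they are 0.20 and 0.01 while the other 4 are below 0.

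Genes with the most similar profiles over the 6 mice were found among 12965 genes by the root mean square (RMS) difference of log2 CPM after each gene was centered on its mean. Nearest to Grin2b were Fam189a1 (RMS difference 0.075) and Pcnx2 (0.080). Both were called, with log2 fold changes of 0.997 (FDR 0.067) and 0.87 (FDR 0.089) by limma. Since they were picked for profiles like that of Grin2b, which lay just outside the threshold, their calls are not an independent result. Nearest to Grin1 were Spred3 (0.042), an inhibitor of Ras signaling, and Gm35040 (0.044), and nearest to Grin2a were Cmya5 (0.056) and Nudt17 (0.063). Grin2c had Dapk3 (0.043), a death-associated protein kinase, and Ppip5k2 (0.047), an inositol phosphate kinase, as neighbors. The RMS difference grows with how much a gene itself varies between the mice, and Grin2d and Grin3a varied by an RMS of 0.50 and 0.75 around their means against 0.16 for Grin2c. Their neighbors were Cacna1g (0.128), a T-type calcium channel, and Akap12 (0.137) for Grin2d, and Fxyd6 (0.131) and the somatostatin receptor gene Sstr1 (0.133) for Grin3a.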

How the data were processed

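Hippocampal total RNA, depleted of ribosomal RNA, was sequenced as 1 library per sample. Per the labels and the study's methods, the authors trimmed reads with Trimmomatic 0.39, mapped them to GRCm38 with STAR 2.7.3a, summarized them per gene with featureCounts (Subread 1.6.4), left out genes that did not reach 1 CPM in 2 or more samples, and normalized with edgeR. The deposited values are log2 CPM with a small prior count. Low values moved in steps of 1 read, and 100% of the low values were whole reads within 0.1, so reads and CPM were worked out from the deposited values. Higher values, those of Grin1, Grin2a, and Grin2b among them, were outside this check.

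Samples were grouped by their labels. The genotypes were compared for all 14477 genes with limma 3.58.1 (lmFit, and eBayes with trend) in R 4.3.3, with Benjamini-Hochberg adjustment over them. The test was checked on simulated data. The study's own test needs counts, so limma voom on the recovered reads was an alternative, among the others given with the closing remarks. Named genes were the 6 subunits, Phf21b, called partner genes, the 2 partners of each list with the lowest p, and the 2 nearest profiles of each subunit. A result that falls under this naming rule is not reported here. Members and lists were chosen with earlier results of these data known. Positions and exon lengths came from GENCODE M21, which held 98.8% of the symbols, whereas the authors used a later release of the same genome build. Other steps used NumPy 2.4.6, pandas 2.3.3, and matplotlib 3.10.9 under Python 3.11.15.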

Additional observations from a re-analysis of the deposited data

How the results depend on the processing

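The direction of Grin1, Grin2a, Grin2b, and Grin3a was kept in all 18 alternatives. For Grin2a the log2 fold change fell to 0.29 (FDR 0.359 by limma) after quantile normalization. With pan-neuron scaling it was 0.17 (FDR 0.457). With mice weighted by arrayWeights, limma gave log2 fold changes of 0.44 for Grin1 (FDR 0.020) and 0.43 for Grin2a (FDR 0.033). Those of Grin2b and Grin3a were 0.86 (FDR 0.012) and 0.99 (FDR 0.038). In this fit 4 subunits, 25 partner genes, and 3549 genes in all passed, against 0, 5, and 176 with equal weights. The weights were 2.04, 0.554, and 0.343 for Phf21bΔ4/Δ4 replicates 2, 3, and 6. Those for Phf21b+/+ replicates 5, 7, and 8 were 1.01, 0.553, and 4.63, so 1 mouse per genotype held most of the weight. Grin2b also passed with log2(CPM + 1) (0.97), log2(CPM + 0.1) (0.97), median centring (1.02), the GC trend removed (0.98), the length trend removed (0.775), and pan-neuron scaling (0.60), and 1 subunit was called in each of these, except 2 after GC removal, when Grin1 (0.54) passed too. By voom on the recovered reads it did not pass (0.97, FDR 0.116). Grin2c was at -0.10 with arrayWeights, -0.043 without the GC trend, -0.00165 without the length trend, and -0.35 with pan-neuron scaling, which put Grin2d at -0.14. Leaving out each mouse gave ranges of 0.48 to 0.67 for Grin1, 0.38 to 0.68 for Grin2a, 0.81 to 1.09 for Grin2b, -0.062 to 0.14 for Grin2c, -0.056 to 0.63 for Grin2d, and 0.40 to 1.42 for Grin3a. Subunits called then numbered 0 to 3 (3 without Phf21bΔ4/Δ4 replicate 6), partner genes 0 to 26, and all genes 9 to 2830. Partner genes called numbered 0 with 1 prior variance or an FDR under 0.05, 2 after quantile normalization, and 15 with pan-neuron scaling. All calls numbered 75 with 1 prior variance, 101 among genes whose log2 CPM averaged 1 or more, 25 at an FDR under 0.05, and 5478 with pan-neuron scaling. Longest transcripts moved the Phf21b+/+ levels per kilobase to 48.3 for Grin1, 37.5 for Grin2a, and 5.91 for Grin3a. The cause of these shifts was not tested. The corrections for GC, length, and pan-neuron markers were chosen after seeing the data. No paired analysis was possible because the genotypes share no replicate numbers. Depth limits Grin2d most, and 3 mice per genotype limit every subunit.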
